A study of Mus musculus with 6 samples.

Results

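The genes described here are the ligands and receptors that steer growing axons: the ephrins and their Eph receptors, the semaphorins with their plexin and neuropilin receptors, the Slits with their Robo receptors, and the netrins with their Unc5 receptors. With earlier results of these data known, they were chosen by symbol from the platform's probe annotation, without Robo4, a Robo of blood vessels. This gave 62 genes of the 16593 named by a probe. Each was represented by the probe with the highest mean over the arrays, out of 92 probes in all. The netrin receptor Dcc and the receptors Ephb2 and Robo3 were not analysed here, because no probe in the annotation used bore their names.

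Messenger RNA was compared between male mouse embryos (C57BL/6J, embryonic day 15), all sampled as frontal cortex, while cortical neurons are being born and sending out axons. 3 embryos carried a bacterial artificial chromosome (clone RP24-333C15) that spans Cyfip1, injected into C57BL/6J pronuclei, and 3 were wild-type littermates without it. They are named Tg1 to Tg3 and WT1 to WT3 below. Copy number, insertion site and founder line of the transgene were not known here. No probe bore the name Cyfip1, so the genotype labels were not checked against its level.

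Guidance proteins act in ligand and receptor pairs. Ephrins are held in the cell membrane, the A class by a lipid anchor and the B class by a membrane-spanning segment, and they bind Eph tyrosine kinases on neighbouring cells, usually causing the growth cone to withdraw. Secreted class 3 semaphorins act through neuropilins and class A plexins, while membrane-bound semaphorins bind plexins directly. Slits repel axons through Robos, and netrins attract through Dcc or repel through Unc5. In the embryonic brain many of these genes are expressed in regional patterns: ephrin-A and EphA genes form opposing gradients in cortex and midbrain, which help sensory axons to find their place on a map.

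There was 1 bead array per embryo, and the values are the authors' quantile-normalised log2 intensities. Median scanner intensity lay between 130.3 and 178.5. Only 6 arrays were made, which limits the precision of every value. The label frontal cortex was checked against marker genes of the cortex and of other tissue. WT2 went against it. Tbr1, a transcription factor of early-born cortical neurons, stood at 7.09 in WT2 and between 9.09 and 11.16 in the other 5 arrays. Fezf2, which specifies deep-layer projection neurons, stood at 6.72 against 8.69 to 11.19, and Dlx1, of the ganglionic eminence, at 6.79 against 11.56 to 12.96. The median probe of the array lies at 7.18, so these 3 markers were dimmer in WT2 than the median probe. En2, a homeobox gene of midbrain and hindbrain, was brightest in WT2 at 12.23, next brightest in Tg3 at 10.98 and lowest in Tg1 at 7.01. Over the 8 tested markers of cortical projection neurons, the list mean relative to the 6-array mean was -1.26 in WT2 and -0.63 in Tg3, and between -0.04 and 0.81 in the others. Not every marker of this list was lowest in WT2. Bcl11b stood at 11.82 in WT2 and 11.43 in Tg3, Neurod1 at 7.67 and 7.53, and Neurod6 at 6.91 and 6.90, so Tg3 was the lowest array for them. Over the 10 tested markers of midbrain, hindbrain and thalamus it was 1.86 in WT2, 0.76 in Tg3 and 0.18 in WT3. The remaining arrays lay between -1.45 and -0.45. Gbx2 of that list went the other way and was lowest in WT2, at 7.29. Over the 4 tested markers of the ganglionic eminence the list mean was -2.42 in WT2 and 0.67 in Tg3. In the other arrays it lay between -0.01 and 0.96. Gad1 of the eminence list was not low in WT2, at 12.00 against 10.34 to 12.25 elsewhere. Tg1 stood apart in another way, with list means of 2.17 for skeletal muscle and 2.10 for epidermis, followed by WT3 with 0.82 and 0.39. In some other lists every tested marker had a higher mean in the transgenic than in the wild-type arrays. Over all tested probes 43.8% did, and 0 passed at a limma adjusted p under 0.05. Among these lists were meninges and fibroblasts (9 of 9), microglia and macrophages (7 of 7), endothelium (7 of 7) and choroid plexus (5 of 5). Their list means ran from 0.07 to 1.69 in transgenic and -1.10 to 0.06 in wild-type arrays for meninges, from 0.20 to 0.46 and -0.52 to 0.01 for microglia, from -0.05 to 0.49 and -0.47 to 0.07 for endothelium, and from 0.29 to 1.81 and -1.54 to 0.32 for choroid plexus. The ranges of endothelium and choroid plexus overlapped between the genotypes. The part that any of these tissues had in the results below was not tested. Results are therefore given with and without WT2, and without Tg1 where that matters.

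37 of the 62 genes had a probe whose 6-array mean lay above the median of all probes, 7.18, and were tested. The other 25 were dimmer. Their values lay between 6.53 and 7.43 and their range over the arrays did not exceed 0.52. These dim genes were Efna2 and Efna3 of the ephrins, Epha1, Epha2, Epha4, Epha6, Epha10 and Ephb3 of the Eph receptors, Sema3b, Sema3c, Sema3d, Sema3e, Sema3g and Sema6a of the semaphorins, Plxna1, Plxna3, Plxna4, Plxnb3 and Plxnd1 of the plexins, and Slit1, Slit3, Robo2, Ntn1, Ntn4 and Unc5d of the other families. A dim probe does not show that its gene is silent. Plxna3 (6-array mean 7.16) and Epha4 (7.16) lay just under the limit, and Plxnc1 (7.21) and Unc5a (7.22) just over it. The tested genes thus cover 6 of 8 ephrins, 7 of 13 Eph receptors, 12 of 18 semaphorins, 3 of 8 plexins, both neuropilins, 1 of 3 Slits, 1 of 2 Robos, 2 of 4 netrins and 3 of 4 Unc5 receptors.

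The guidance genes varied more from embryo to embryo than the array as a whole. The difference between the highest and the lowest of the 6 arrays exceeded 1 on the log2 scale, a doubling of intensity, for 16 of the 37 genes (43.2%) and for 17.0% of all 12848 tested probes. The median range was 0.98 for the guidance genes and 0.51 for all tested probes, at a similar brightness (median 6-array mean 8.89 and 8.77). Without WT2 the count was 12 (32.4%, against 14.6% of all tested probes), without Tg1 it was also 12 (32.4%, against 8.06%), and without both it was 7 (18.9%, against 5.85%). The most variable gene was Sema5a, with a range of 2.74, followed by Epha3 (2.23), Sema3a (2.03), Ephb1 (1.97) and Plxna2 (1.92). The least variable were Sema4d (0.18), Ephb4 (0.19) and Nrp2 (0.21).

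**Figure D1:**
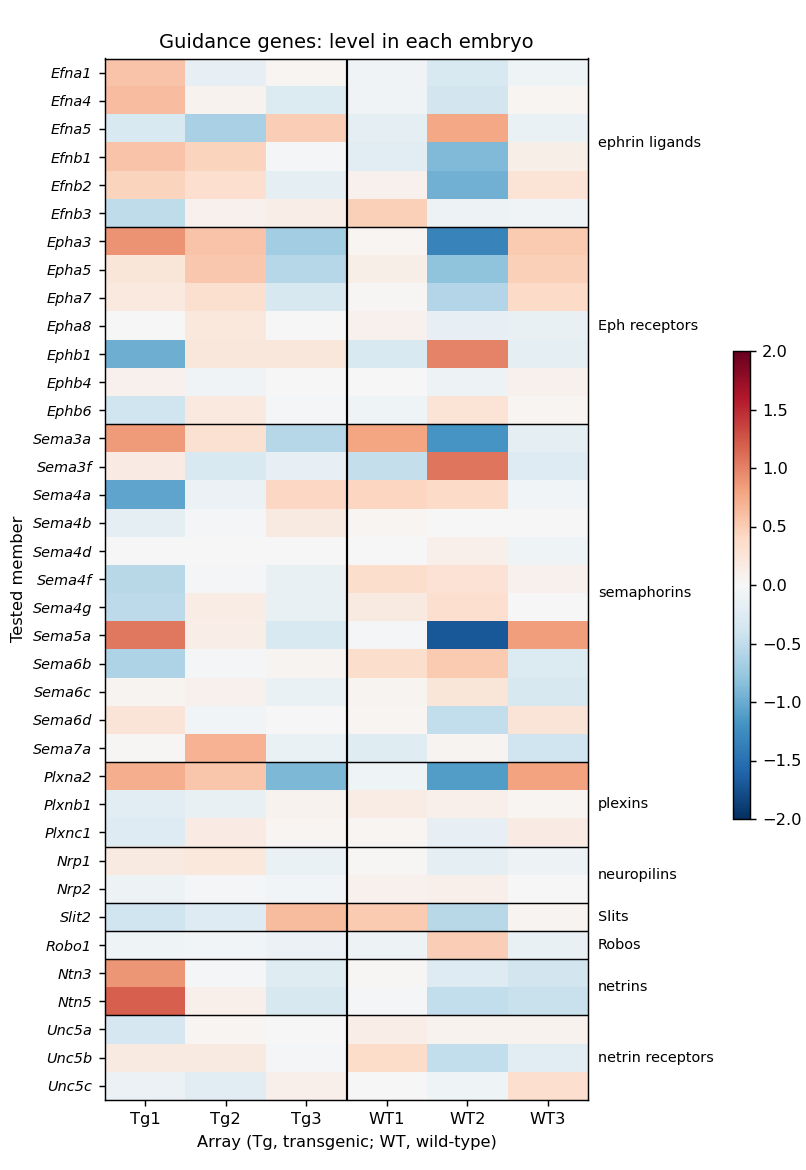
Level of each of the 37 tested guidance genes (rows, by family) in each of the 6 arrays (columns), as the log2 value minus that gene's 6-array mean, in colour from blue (lower) to red (higher). WT2 is deep blue for Sema5a, Epha3, Sema3a and Plxna2 and red for Ephb1, Sema3f and Efna5, while no block of rows separates the 3 transgenic from the 3 wild-type columns.

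The median range of the guidance genes fell to 0.71 without WT2 and to 0.59 without Tg1, and that of all tested probes to 0.47 and 0.40. WT2 held the lowest of the 6 values for 17 of the 37 genes (45.9%, against 14.7% of all tested probes) and the highest for 10 (27.0%, against 21.4%). 8 genes (21.6%) lay more than 1 log2 unit from the mean of the other 5 arrays in WT2, where 2.64% of all tested probes did. Those lower in WT2 were the semaphorins Sema5a and Sema3a, the receptors Epha3 and Plxna2, and the ephrins Efnb1 and Efnb2. Those higher in WT2 were Ephb1 and Sema3f. Tg1 was second, with 7 genes (18.9%) beyond 1 log2 unit against 6.69% of all tested probes. The other arrays had at most 1 such gene.

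**Figure D2:**
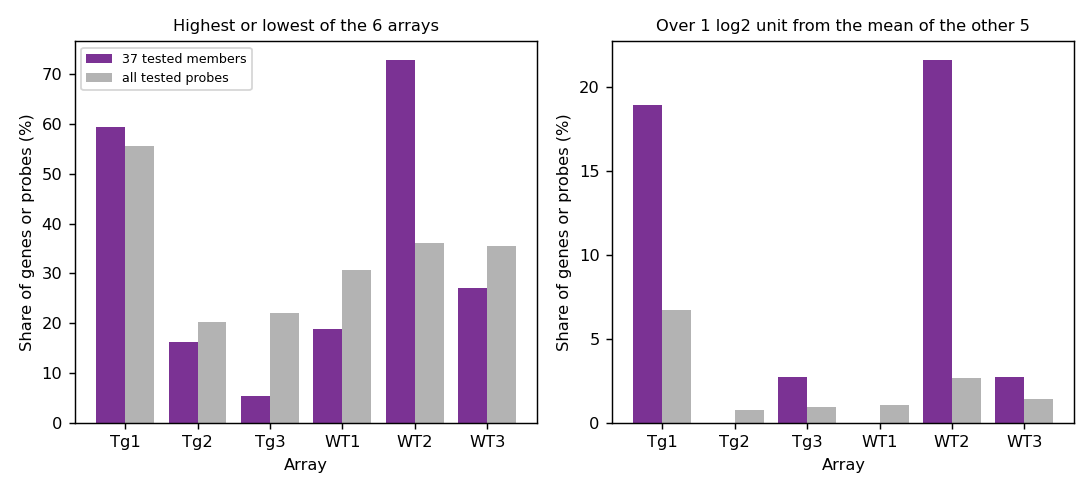
Share of the 37 tested guidance genes (purple) and of all 12848 tested probes (grey), in percent, for which each array held the highest or lowest of the 6 values (left) or lay over 1 log2 unit from the mean of the other 5 arrays (right). In the left panel WT2 does so for 27 of 37 guidance genes and 36.1% of all probes, while Tg1 reaches 59.5% and 55.5%.

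Sema5a encodes a transmembrane semaphorin with thrombospondin repeats that can attract or repel axons. Its log2 values were 11.18, 10.25 and 9.83 in Tg1 to Tg3 and 10.09, 8.44 and 10.97 in WT1 to WT3. WT2 lay 2.03 below the mean of the other 5 arrays, and a second Sema5a probe had the same order, with 8.09 in WT2 and 9.44 to 10.79 elsewhere. Epha3, a receptor for ephrin-A ligands, stood at 10.18, 9.87 and 8.59 in the transgenic arrays and 9.33, 7.95 and 9.82 in the wild-type arrays. Plxna2, a class A plexin that receives semaphorin signals, stood at 11.06, 10.88 and 9.43 against 10.24, 9.21 and 11.13. For Epha3 and Plxna2 the 2 lowest arrays were WT2 and Tg3, 1 of each genotype, which were also the arrays with the lowest Tbr1 and Fezf2 and the highest En2. Epha5, another ephrin-A receptor, had the same 2 lowest arrays, with 8.06, 8.37 and 7.26 against 7.94, 7.02 and 8.29. Epha7 did so over a smaller range, with 9.57, 9.69 and 9.05 against 9.39, 8.78 and 9.76. The 2 other tested Epha7 probes, both dimmer, did not share this order. In 1 of them the lowest arrays were WT2 (7.11) and Tg1 (7.27), in the other Tg1 (7.12) and WT3 (7.16).

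Efna5 encodes ephrin-A5, a ligand of EphA3, EphA5 and EphA7, and ran the other way. Its values were 11.92, 11.57 and 12.72 in Tg1 to Tg3 and 12.04, 12.99 and 12.08 in WT1 to WT3, highest in WT2 and next highest in Tg3. Ephb1, a receptor for B-class ephrins, stood at 10.66, 11.87 and 11.87 in the transgenic arrays and 11.34, 12.63 and 11.45 in the wild-type arrays, highest in WT2 and lowest in Tg1. Sema3f, a secreted repellent that acts through neuropilin-2, stood at 11.98 in WT2 and at 10.44 to 11.08 in the other 5 arrays, and its second tested probe at 11.37 in WT2 and 9.60 to 10.39 elsewhere. Robo1, a Slit receptor, was nearly level in 5 arrays, at 11.67 to 11.77, and stood at 12.31 in WT2.

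WT2 and Tg3 were together the 2 lowest or the 2 highest arrays for 12 of the 37 guidance genes (32.4%), where the share over all tested probes was 11.8%. They were the 2 lowest for Efna4, Efnb2, Epha3, Epha5, Epha7, Nrp1, Plxna2, Sema3a and Sema5a, and the 2 highest for Efna5, Ephb1 and Sema4d. Some of these ranks rest on near ties. Sema4d stood at 7.301 in Tg3 and 7.3007 in WT1, Ephb1 at 11.8705 in Tg3 and 11.8659 in Tg2, and Nrp1 at 11.54 in Tg3 and 11.57 in WT3. Tg1 and Tg2 came next, with 11 genes (29.7%, against 14.9%). All of these pairs were read after the values were seen, and they are given as a description. The part that region of dissection has in them was not tested, and in tissue RNA fewer cells of a type and less RNA per cell cannot be told apart.

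**Figure D3:**
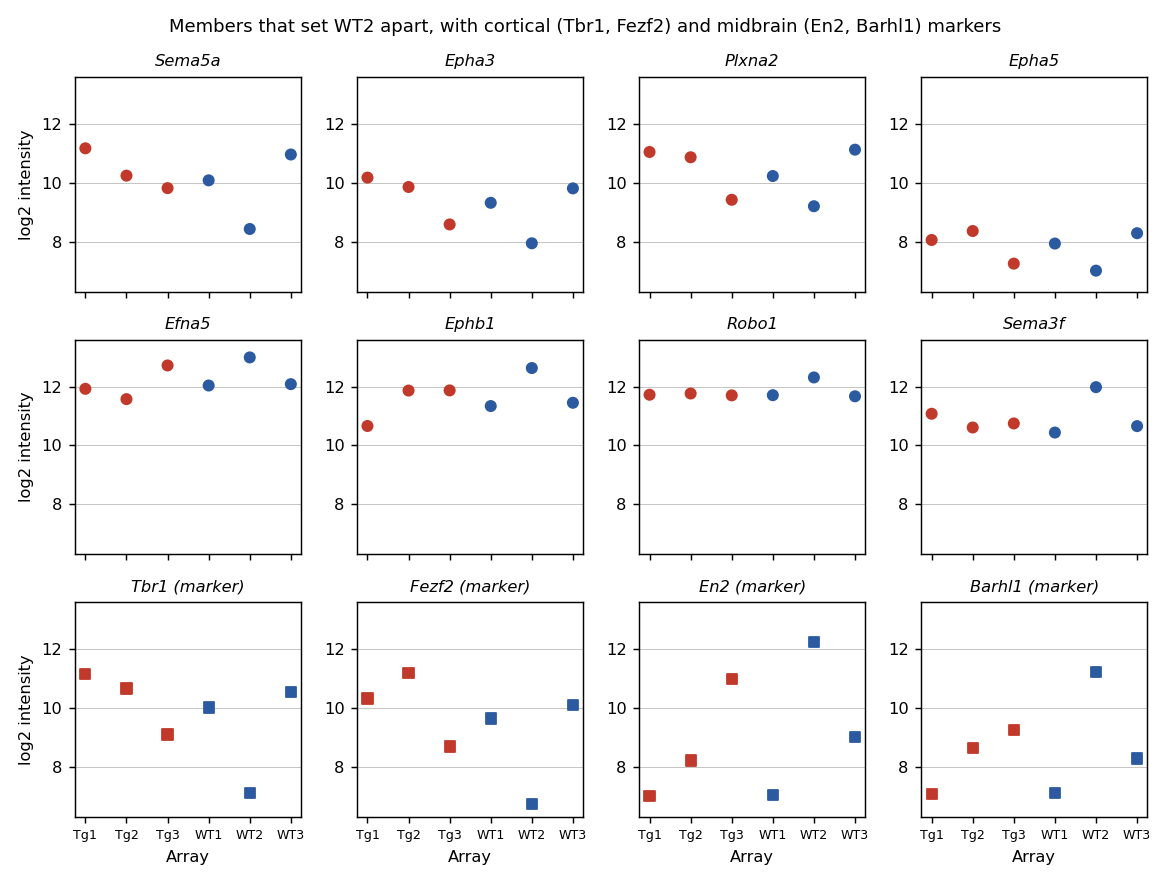
Log2 intensity (y axis, the same scale in every panel) of 8 guidance genes (circles) and 4 region markers (squares) in each array (x axis), transgenic in red and wild-type in blue, 1 point per embryo. WT2 has the lowest Sema5a (8.44), Epha3 (7.95) and Tbr1 (7.09) and the highest Efna5 (12.99) and En2 (12.23), and Tg3 lies on the same side of the other arrays for Epha3, Plxna2, Epha5 and Efna5.

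The promoters of Sema5a, Epha3 and Plxna2, which were low together in WT2, of Efna5, which was high there, and of Sema4f, the gene with the smallest p in the comparison of genotypes below, are shown to give the sequence next to the start of each gene. Each window runs from 250 bases before to 50 bases after the start, 5′ to 3′ on the gene's strand, from RefSeq on the mouse build GRCm38.p6. Capitals mark matches on either strand to 3 motifs: CANNTG, the E-box read by basic helix-loop-helix factors, TAATTA, a core read by many homeodomain factors, and GGGCGG, the GC box. No matches to different motifs overlapped in these windows.
Sema5a promoter, chr15:32244563-32244862, plus strand: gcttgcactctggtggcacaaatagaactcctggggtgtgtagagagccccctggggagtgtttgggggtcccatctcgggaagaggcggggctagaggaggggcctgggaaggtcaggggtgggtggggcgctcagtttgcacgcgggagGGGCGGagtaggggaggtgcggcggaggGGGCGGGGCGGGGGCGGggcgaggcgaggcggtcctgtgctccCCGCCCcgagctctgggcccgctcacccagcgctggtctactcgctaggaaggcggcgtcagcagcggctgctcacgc
Epha3 promoter, chr16:63864126-63864425, minus strand: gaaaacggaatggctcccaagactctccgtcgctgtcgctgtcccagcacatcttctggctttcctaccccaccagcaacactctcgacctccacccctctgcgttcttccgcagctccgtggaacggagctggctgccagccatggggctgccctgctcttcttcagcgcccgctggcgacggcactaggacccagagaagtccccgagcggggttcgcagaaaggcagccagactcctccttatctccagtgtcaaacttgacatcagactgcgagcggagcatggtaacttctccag
Plxna2 promoter, chr1:194619579-194619878, plus strand: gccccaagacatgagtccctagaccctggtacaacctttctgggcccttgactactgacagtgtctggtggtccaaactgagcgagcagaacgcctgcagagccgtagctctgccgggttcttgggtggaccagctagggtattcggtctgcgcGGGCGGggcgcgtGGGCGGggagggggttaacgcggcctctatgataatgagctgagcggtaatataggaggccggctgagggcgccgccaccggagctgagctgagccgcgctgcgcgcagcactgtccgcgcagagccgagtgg
Efna5 promoter, chr17:62881268-62881567, minus strand: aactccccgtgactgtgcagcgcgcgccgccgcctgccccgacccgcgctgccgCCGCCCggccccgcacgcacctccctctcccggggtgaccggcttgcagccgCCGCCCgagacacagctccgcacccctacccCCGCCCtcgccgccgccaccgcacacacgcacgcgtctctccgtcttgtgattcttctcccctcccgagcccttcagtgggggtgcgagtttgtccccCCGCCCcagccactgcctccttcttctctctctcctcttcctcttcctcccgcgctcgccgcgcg
Sema4f promoter, chr6:82939720-82940019, minus strand: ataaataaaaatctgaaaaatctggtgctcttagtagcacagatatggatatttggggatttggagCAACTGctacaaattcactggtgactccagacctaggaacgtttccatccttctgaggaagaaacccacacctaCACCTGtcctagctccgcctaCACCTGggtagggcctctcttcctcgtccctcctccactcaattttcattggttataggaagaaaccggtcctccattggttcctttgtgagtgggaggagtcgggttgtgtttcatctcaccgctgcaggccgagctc
The GC box occurred 5 times in the Sema5a window, 4 times in that of Efna5 and 2 times in that of Plxna2, and not in those of Epha3 and Sema4f. It is found in 35.7% of all 32851 promoter windows of this length and in 71.6% of the 67 windows of the 53 guidance genes that matched by symbol. The E-box occurred 3 times in the Sema4f window and in none of the other 4 shown, against 72.3% of all windows and 49.3% of those of guidance genes. TAATTA was in none of the 5, and is in 5.29% of all windows and 2.99% of those of guidance genes.

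The design has 1 contrast, transgenic against wild-type, which asks how extra Cyfip1 alters gene expression in the developing cortex. Of the 37 tested guidance genes, 0 passed at a limma adjusted p under 0.05, and over all 12848 tested probes 0% were called. At an unadjusted p under 0.05 there was 1 guidance gene (2.70%), a lower one, where 6.98% of all tested probes passed, 3.47% higher and 3.51% lower. The limma adjusted p of the guidance genes ran from 0.675 to 0.991. 19 lay above 0 and 18 below, with a median log2 difference of 0.01, and 43.8% of all tested probes lay above 0 with a median of -0.03. Single differences ran from -0.51 (Sema4a) to 0.66 (Efnb1), with standard errors from 0.10 to 0.66. For 27 of the 37 genes the spread of the 3 wild-type arrays, from lowest to highest, was wider than the difference between the genotypes, as it was for 78.7% of all tested probes. The 95% interval was widest for Sema5a, from -0.995 to 2.17.

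The differences of the guidance genes changed when WT2 or Tg1 was left out. Their median size was 0.21 with all arrays, 0.14 without WT2, 0.12 without Tg1 and 0.10 without both, and the sign turned for 13, 9 and 17 of the 37 genes. Over all tested probes the median size was 0.14 with all arrays. Their sizes and turned signs without WT2 or Tg1 are not given here, so these changes are not shown to be particular to guidance genes. Of the guidance genes that turned, Ephb4 (0.01), Sema4d and Slit2 (both -0.01) lay near 0 with all arrays. Without WT2, 16 lay above 0 and 21 below, and 0 passed at an unadjusted p under 0.05, against 3.28% of all tested probes. Sema5a went from 0.59 to -0.11, Sema3a from 0.39 to -0.10, Epha3 from 0.52 to -0.03, Plxna2 from 0.26 to -0.23, Epha5 from 0.14 to -0.22, Efna5 from -0.30 to 0.01 and Robo1 from -0.17 to 0.04. The other genes that turned without WT2 were Epha7, Ephb1, Ephb4, Sema3f, Sema4d and Sema6d. Without Tg1, 22 lay above 0 and 15 below, and 1 passed at an unadjusted p under 0.05, against 4.27% of all tested probes. Efnb3, Ephb6, Plxnc1, Sema4b, Sema6c and Slit2 turned without Tg1 and not without WT2.

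**Figure D4:**
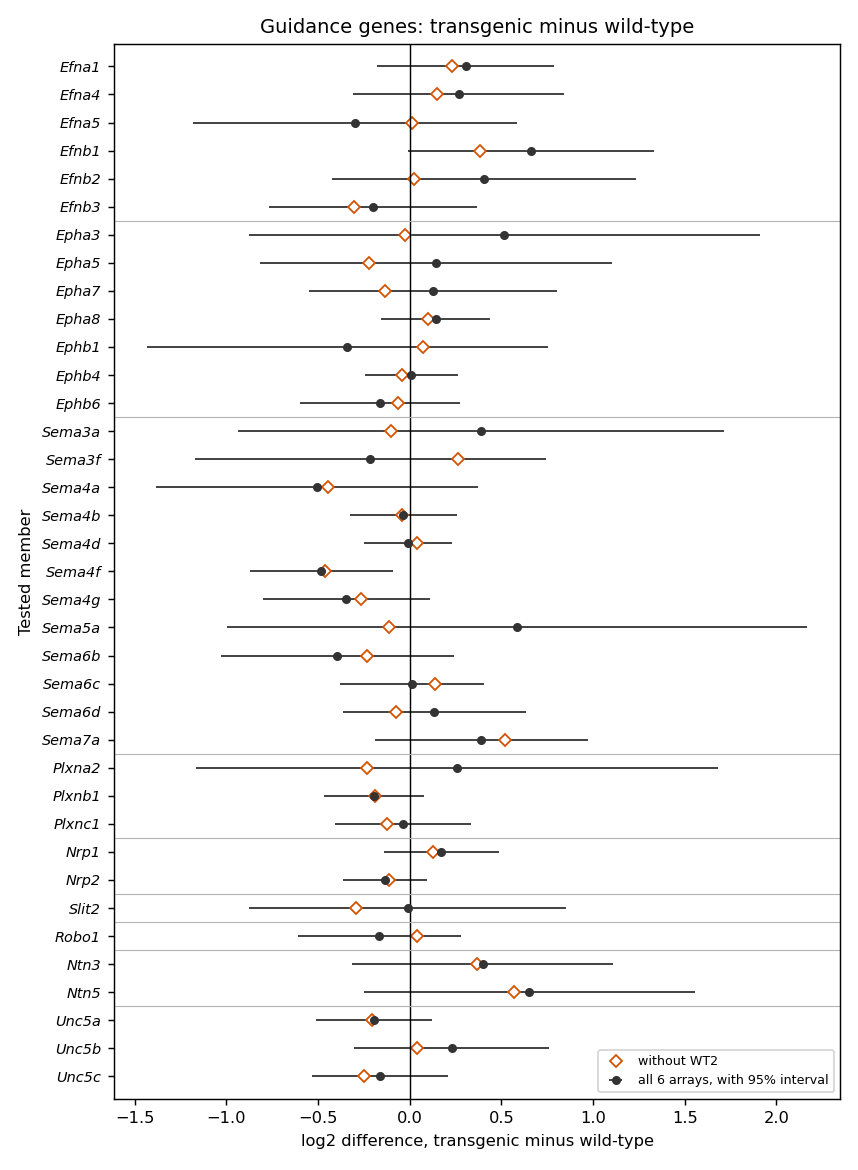
Log2 difference between transgenic and wild-type (x axis) for each tested guidance gene (y axis, by family), as black points with limma's 95% interval over all 6 arrays, and as open diamonds without WT2. The interval leaves out 0 for Sema4f alone, and for 13 genes, Sema5a, Sema3a, Epha3 and Plxna2 among them, the diamond lies on the other side of 0 from the point.

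Among the ligands, 4 of the 6 tested ephrins lay above 0 and 2 below (median 0.29), and 0 passed. Efnb1 encodes ephrin-B1, which is expressed by cortical progenitors. Its log2 values were 11.08, 10.95 and 10.49 in the transgenic and 10.29, 9.63 and 10.62 in the wild-type arrays. The groups overlapped, since WT3 lay above Tg3. The means were 10.84 ± 0.31 and 10.18 ± 0.51 (SD, n = 3 each), a 1.58-fold difference (log2 0.66, SE 0.28, limma adjusted p = 0.675). It was 0.39 without WT2, 0.54 without Tg1 and 0.76 among the 4 animals with label numbers over 200. Efnb2, an ephrin also known from arteries, differed by 0.40 (0.02 without WT2), Efna1, likewise known from vessels, by 0.30 and Efna4 by 0.27. Efnb3, an ephrin-B of the nervous system's midline, differed by -0.20 and turned to 0.0061 without Tg1, its lowest array. Efna5 differed by -0.30. Tg1, with its high muscle and skin markers, had the highest value of Efna1, Efna4, Efnb1 and Efnb2. Without Tg1, Efna1 differed by 0.09 and Efna4 by 0.03. The mean of the 6 ephrins relative to the 6-array mean was 0.23 in Tg1 and -0.31 in WT2, and between 0.00 and 0.03 in the other 4 arrays.

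Of the 7 tested Eph receptors, 5 lay above 0 and 2 below (median 0.13), and 0 passed. The values of Epha3, Epha5, Epha7 and Ephb1 given above overlapped between the genotypes, and their differences of 0.52, 0.14, 0.13 and -0.34 were smaller than the spread of the wild-type arrays. Without WT2 they were -0.03, -0.22, -0.14 and 0.07, so all 4 turned. Over all arrays the other tested Epha7 probes differed by -0.03 and 0.06. Ephb1 was 0.06 without Tg1 and 0.47 without both arrays, where it was the 1 guidance gene at an unadjusted p under 0.05 (limma adjusted p = 0.992), against 2.66% of all tested probes. Epha8, a receptor studied in midbrain, differed by 0.14 and Ephb6, an Eph receptor without kinase activity, by -0.16. Ephb4, the receptor of ephrin-B2 on veins, was nearly level in all arrays, at 7.27 to 7.46, and differed by 0.01 (95% interval -0.25 to 0.26).

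Of the 12 tested semaphorins, 5 lay above 0 and 7 below (median -0.02), and 0 passed over all probes. Sema4f, a membrane-bound semaphorin found at glutamatergic synapses, had the smallest p of all guidance genes. Its values were 8.29, 8.80 and 8.69 in the transgenic arrays and 9.18, 9.12 and 8.93 in the wild-type arrays. All 3 transgenic values lay below all 3 wild-type values. The means were 8.59 ± 0.27 and 9.07 ± 0.13 (SD, n = 3 each). Sema4f was 1.40-fold higher in wild-type, a log2 difference of -0.48 (SE 0.16, limma adjusted p = 0.675). An exact permutation test of 3 against 3 arrays gives p = 0.1, two-sided, the smallest it can give. Every gene whose groups do not overlap gets this value, Nrp2 and Unc5a included, so it does not set Sema4f apart. The difference was negative in all 16 alternatives tried, from -0.59 to -0.31. Because the groups do not overlap, leaving out arrays could not turn this sign. The other alternatives reuse the same arrays. The difference was -0.46 without WT2 and -0.33 without Tg1. By label number, Tg1 stood at 8.29 and WT3 at 8.93 in the pair numbered under 100, and the difference was -0.40 among the 4 animals numbered over 200.

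Other class 4 and 6 semaphorins were below 0 as well. Sema4a, a semaphorin of immune and neural cells, stood at 9.55, 10.50 and 11.03 against 11.05, 10.99 and 10.56, a difference of -0.51 (SE 0.37) that was -0.10 without Tg1, its lowest array. Sema4g stood at 8.62, 9.28 and 8.99 against 9.32, 9.47 and 9.14 and differed by -0.35 (SE 0.19), or -0.17 without Tg1. Sema6b, a transmembrane semaphorin that binds class A plexins, stood at 9.08, 9.66 and 9.75 against 10.04, 10.22 and 9.41. It differed by -0.39 (SE 0.26), and its second tested probe had the same sign. Without Tg1 it was -0.19. Tg1 was the lowest array for all 3, and without Tg1 and WT2 Sema4g differed by -0.09 and Sema6b by -0.02. Among the 4 animals numbered over 200, which leave out Tg1 and WT3, Sema6b differed by -0.43, Sema4g by -0.26 and Sema4a by -0.25. The groups of all 3 overlapped. Sema4b and Sema4d, the ligand of plexin-B1, differed by -0.04 and -0.01. Sema6c and Sema6d differed by 0.01 and 0.13.

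Sema3a, the secreted repellent that also orients the dendrites and axons of cortical neurons, stood at 9.84, 9.30 and 8.42 in the transgenic and 9.78, 7.82 and 8.81 in the wild-type arrays, a difference of 0.39 (SE 0.55). Its 2 lowest arrays were WT2 and Tg3. Sema3f differed by -0.21 and turned to 0.26 without WT2. Sema7a, the only lipid-anchored semaphorin, stood at 9.46, 10.13 and 9.29 against 9.19, 9.49 and 9.03. It differed by 0.39 (SE 0.24), with 2 transgenic values inside the wild-type range, and by 0.52 without WT2.

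Among semaphorin receptors, Plxna2 differed by 0.26 (SE 0.60), Plxnb1, the receptor of Sema4d, by -0.20 (SE 0.11) and Plxnc1, the receptor of Sema7a, by -0.04 (SE 0.15). Plxnb1 stood at 7.81, 7.88 and 8.09 against 8.17, 8.13 and 8.07, so that Tg3 lay above WT3 and the groups overlapped. Nrp1, the binding receptor for Sema3a and for vascular endothelial growth factor, stood at 11.85, 11.88 and 11.54 against 11.70, 11.50 and 11.57, a difference of 0.17 (SE 0.13), and a second probe gave the same sign. Nrp2, the receptor for Sema3f, stood at 7.20, 7.27 and 7.24 against 7.40, 7.42 and 7.31. Its groups did not overlap, and it differed by -0.14 (SE 0.10, limma adjusted p = 0.699), a small step on a probe close to the limit for testing.

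The only Slit tested was Slit2, a midline repellent, at 9.41, 9.56 and 10.45 in the transgenic and 10.33, 9.26 and 9.86 in the wild-type arrays. The difference was -0.01 (95% interval -0.88 to 0.85), and it had no settled sign. Robo1 differed by -0.17 (SE 0.19) and was level between genotypes outside WT2. Both tested netrins lay above 0, and Tg1 set most of the size of the difference. Ntn5 stood at 8.79 in Tg1, 7.69 in Tg2 and 7.29 in Tg3, and at 7.55, 7.11 and 7.16 in WT1 to WT3. Its difference of 0.65 (SE 0.38) was 0.22 without Tg1. Ntn3 stood at 9.89 in Tg1 and between 8.65 and 9.04 in the other 5 arrays, and its difference of 0.40 (SE 0.30) was 0.06 without Tg1. In Tg1 the skeletal muscle marker Myl1 stood at 12.90, at 11.08 in WT3 and at 7.15 to 7.19 in the other 4. WT3 held the lowest Ntn3 of all arrays, at 8.65, and its Ntn5 stood at 7.16. The part that muscle tissue has in the netrin values was not tested.

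The Unc5 receptors, which turn netrin into a repellent, went both ways. Unc5a stood at 6.88, 7.26 and 7.22 against 7.36, 7.29 and 7.30, with groups that did not overlap and a difference of -0.19 (SE 0.13, limma adjusted p = 0.694). The difference was -0.07 without Tg1. Unc5c stood at 8.76, 8.66 and 8.99 against 8.88, 8.80 and 9.22 and differed by -0.16 (SE 0.16). Unc5b, a receptor also found on vessels, stood at 8.49, 8.49 and 8.28 against 8.67, 7.81 and 8.10 and differed by 0.23 (SE 0.22), or 0.04 without WT2. Among the 37 tested genes, groups did not overlap for 3 (8.11%), Sema4f, Nrp2 and Unc5a, all lower. Over all tested probes they did not overlap for 14.2%, 5.94% higher and 8.25% lower. Of the 25 dim genes, which were not tested, 4 did not overlap either, Efna2, Ntn4, Plxna3 (-0.31) and Sema6a, all lower. The share over all dim probes was not counted, so nothing is read from this count or its direction.

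Genes that work with these ligands and receptors were read from a list of co-receptors, adhesion partners and signalling proteins of the growth cone, of which 58 of 70 had a probe and 47 were tested. 36 were below 0 and 11 above, where 43.8% of all tested probes lay above 0. The median was -0.15 beside -0.03 over all tested probes, and 0 passed at a limma adjusted p under 0.05. At an unadjusted p under 0.05, 1 was higher and 2 were lower, 3 of 47, where 6.98% of all tested probes passed. The count was thus near the background, and the 3 genes are given as a description. The per-array list mean was -0.25, 0.03 and -0.03 in Tg1 to Tg3 and 0.06, 0.11 and 0.09 in WT1 to WT3. All 3 transgenic means thus lay below all 3 wild-type means, and Tg1 was lowest. Without Tg1 and WT2 the median was -0.06. Kalrn, which acts downstream of EphB receptors, stood at 9.59, 10.55 and 9.79 against 10.81, 10.82 and 10.91, a difference of -0.87 (SE 0.25, limma adjusted p = 0.675) without overlap. Gsk3b, a kinase that acts on microtubules in the growth cone, stood at 9.02, 9.03 and 8.77 against 9.34, 9.18 and 9.59 and differed by -0.43. Sdcbp, syntenin, which binds the tails of B-class ephrins, stood at 11.46, 11.39 and 11.55 against 11.14, 10.92 and 11.30 and differed by 0.35. Crmp1 and Dpysl5, collapsin response mediators that relay semaphorin signals, differed by -0.43 and -0.30, and the netrin receptor Neo1 by -0.15. Tg1 was the lowest array for Crmp1, at 11.82, and for Dpysl5, at 11.73. Among the 11 genes above 0 were Grb10 (0.57), Rnd2 (0.41) and Flrt2 (0.35).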

How the data were processed

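Total RNA from frontal cortex of 3 transgenic and 3 wild-type embryos was hybridised to Illumina Mouse ref-8 arrays, per the labels' protocols. The submitters' processing notes name BeadStudio, with no version or settings. The deposited scanner table holds linear intensity values with no detection p, and the deposited value table holds the authors' log2 values, which equalled quantile normalization of the log2 scanner intensities to within 5e-09, without background correction. These log2 values were used as deposited, in keeping with how the guidance genes were defined, and a background-corrected version (limma normexp, offset 50, then quantile) was an alternative.

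The 12848 of 25697 probes with a 6-array mean above the median were fitted with lmFit and eBayes (R 4.3.3, limma 3.58.1), transgenic minus wild-type, two-sided, with Benjamini-Hochberg adjustment over all tested probes at 0.05. Standard errors, intervals and p-values in the text come from this fit. The code was tested on simulated data. Samples were grouped by genotype in the labels. Replicate numbers follow accession order and pair nothing. The labels call the controls littermates and give each animal its own number, but do not say which animals share a litter. All arrays carry 1 slide number, and no 2 arrays were identical. Probe names came from the platform annotation, and all 62 genes matched RefSeq of GRCm38.p6 by gene identifier.

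The members and lists were chosen with earlier results of these data known. Values of single arrays are given for genes whose genotypes did not overlap, for the most variable gene of each family and for textbook members of cortical wiring, and for further members and pathway genes chosen after their values were seen. Alternatives were normexp, median scaling, cyclic loess, no and a stricter filter, array weights, the range of the animal number (under 100 or over 200) as a block or within it, each array left out, and all probes of a gene averaged. Further values without WT2 or Tg1 were added after the data were seen.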

Additional observations from a re-analysis of the deposited data

How the results depend on the processing

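Under the 16 alternatives, 0 guidance genes and 0 probes passed at a limma adjusted p under 0.05, and the smallest adjusted p of a guidance gene was 0.285, where animal number range was a block. 15 of the 37 tested genes kept their sign in every alternative that tested them and 22 did not. Sema4f, Efnb1, Sema4a, Sema4g, Sema6b, Sema7a, Ntn5 and Nrp1 kept theirs, as did Efna1, Epha8, Nrp2, Plxnb1, Unc5a, Unc5b and Unc5c. For Sema4f, Nrp2 and Unc5a, whose groups did not overlap, leaving out arrays could not turn the sign. Guidance genes at an unadjusted p under 0.05 numbered 1 in the reported fit, 3 with no filter on dim probes (6.34% of all probes passed), 2 with array weights (8.69%), 4 where animal number range was a block, 3 among the 4 animals numbered over 200 (6.44%) and between 0 and 4 with 1 array left out. With the block 15.5% of all tested probes passed that mark. The count was 0 without WT2 (3.28% of all tested probes), 2 without Tg2 (8.75%), 3 without WT3 (5.52%) and 4 without Tg3 (6.67%). Genes above 0 numbered 29 of 62 with no filter and 9 of 20 with a stricter filter, in place of 19 of 37, and the median difference was 0.10 with array weights. The count of genes with a range over 1 was 7 without Tg1 and WT2, and the median of the other pathway genes was then -0.056.

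Signs turned for 13 guidance genes without WT2, 9 without Tg1 and 17 without both, with no share of all tested probes beside these counts. With 1 array left out, the difference lay between -0.62 and 0.012 for Efna5, -0.025 and 0.99 for Epha3, -0.22 and 0.46 for Epha5, -0.23 and 0.77 for Plxna2, -0.28 and 0.041 for Robo1, -0.10 and 0.88 for Sema3a, -0.11 and 1.16 for Sema5a, and -0.33 and 0.25 for Slit2. Without Tg1 and WT2 the differences were 0.086 for Efna5, -0.34 for Epha3, 0.47 for Ephb1, -0.30 for Epha5, -0.53 for Plxna2, 0.044 for Robo1, -0.43 for Sema3a and -0.49 for Sema5a. Slit2 turned to 0.076 under median scaling, 0.027 under cyclic loess, 0.29 with array weights and 0.21 among the 4 animals numbered over 200. The cause was not tested. Median scaling raised the share of all tested probes above 0 from 43.8% to 56.5% and their median from -0.03 to 0.03. No paired analysis was possible because the labels give no shared replicate numbers. 6 arrays limit all of these values.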
